A study of Mus musculus with 18 samples.

Results

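Primary mouse microglia that carried the R47H form of the receptor TREM2 on 1 allele (hTrem2 R47H/+) were treated with the Akt inhibitor MK-2206. They were compared with wild-type microglia (mTrem2 +/+) that had DMSO and no inhibitor. Neither group received tau. The comparison asks what stays different from wild type once Akt is inhibited in the mutant cells. It rests on 6 of the 18 RNA sequencing libraries of the study, chosen by their group labels: 3 of wild-type cells and 3 of R47H/+ cells with MK-2206. All cells came from pups of postnatal day 0 to 3, grew in mixed culture for 10 days and, once isolated, had a 6 h pretreatment. That pretreatment was 0.01% DMSO in the wild-type group and 1 uM MK-2206 in the inhibited group, for which the labels give no DMSO share. The 3 libraries of R47H/+ cells with DMSO and no tau are given beside them, and the remaining 9 libraries, all with 0N4R tau fibrils, only helped to estimate the spread. No wild-type group with MK-2206 was analysed here, so effects of genotype and of the inhibitor in this comparison cannot be told apart. Nor can R47H be told apart from any other difference between the alleles labelled hTrem2 and mTrem2. The labels do not say whether replicates came from different cultures or litters, so p-values reflect the spread among these libraries only, and that spread may be technical.

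TREM2 is a lipid-sensing receptor of microglia, the resident macrophages of the brain, and signals through the adaptor TYROBP and the kinase SYK to phosphoinositide 3-kinase and Akt. Akt phosphorylates FOXO transcription factors and keeps them out of the nucleus, and it promotes sterol synthesis, glucose uptake and growth. R47H is a human risk variant for Alzheimer's disease, and MK-2206 is an allosteric inhibitor of the Akt kinases.

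The 6 libraries held between 16743452 and 19773922 counts, and 13267 genes were tested with edgeR's quasi-likelihood test over all 18 libraries. A gene is called higher or lower here where its Benjamini-Hochberg adjusted p lay below 0.05. Levels are CPM, counts scaled to a common library size, in the order of replicates 1, 2 and 3, and all changes are log2 values of inhibited R47H/+ over wild-type cells unless another pair is named. Wild-type replicate 3 stood apart from the others: its long genes were low and its short genes high, with a slope of -1.20 log2 CPM per 10-fold gene length against the inhibited libraries, compared with 0.26 and 0.12 in wild-type replicates 1 and 2. Its log2 CPM correlated with those of the other wild-type libraries, across genes, at Pearson's r of 0.924 and 0.932, against 0.991 between replicates 1 and 2. Counts over gene lists are therefore given with and without it, and for a single gene the value without it is added where that changed a call printed here or moved a called change most.

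With all libraries, 907 genes were higher and 758 lower in the inhibited R47H/+ cells, 1665 in all, or 6.84% and 5.71% of those tested. Without wild-type replicate 3, 1159 genes were higher and 979 lower, 8.55% and 7.22% of 13557 tested, and 1378 of the 1665 calls were made again in the same direction. Counts over gene lists in this comparison are to be read against these shares. A list near them had no more calls than genes at large. The count also depended on other libraries. It was 2595 without wild-type replicate 1, and 1103, 1068 and 1103 without replicates 1, 2 and 3 of the inhibited group. A fit of the 6 libraries alone called 285 genes, 1.62% of those tested as higher and 0.676% as lower, and a fit of 5 that left out wild-type replicate 3 called 3214. Of 148 genes of the naming rule that the fit of 6 could test, 90 kept their side of the threshold and 58 lost their call. Among the shortest 2650 genes, 57 to 2128 bases long, the median change was -0.31 with all libraries and 0.10 without wild-type replicate 3. Among the longest 2655 genes the medians were 0.16 and -0.04. Replicate 3 thus shifted short genes down and long genes up in this comparison.

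**Figure D1:**
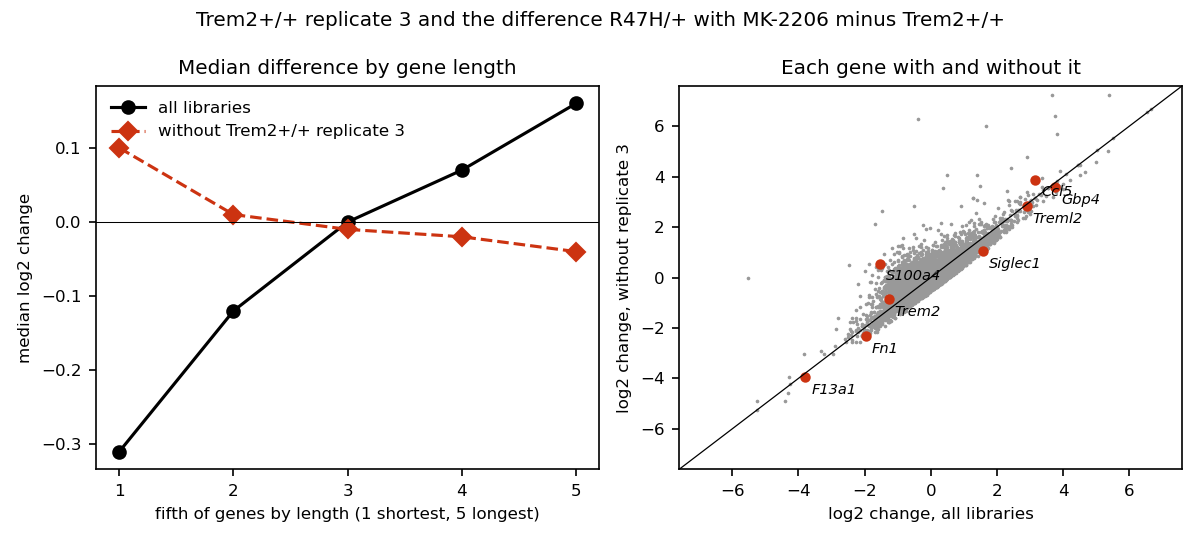
Left, median log2 change of inhibited R47H/+ over wild-type cells in 5 equal classes of genes by length, with all libraries (black) and without wild-type replicate 3 (red). The black line runs from -0.31 to 0.16 and the red one from 0.10 to -0.04. Right, the log2 change of each gene (grey points) with all libraries (horizontal) and without that replicate (vertical), with named genes in red and the line of equal values; Gbp4, Treml2, Fn1 and F13a1 lay near it, and S100a4 and Ccl5 above it.

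Csf1r, the receptor for macrophage colony-stimulating factor that microglia share with other macrophages, was abundant and lay between 1479 and 2263 CPM in all 6 libraries. The 12 markers of microglia and macrophages summed to 8311 to 14105 CPM in wild-type and 7800 to 8456 CPM in inhibited cells, and 0 were higher in edgeR (3 at an unadjusted p below 0.05, 0 by DESeq2). With all libraries Cx3cr1, Itgam and C1qb were lower, and without replicate 3 Cx3cr1, Itgam and Adgre1. Several defining genes of adult microglia were close to absent: Tmem119 lay at 1.14 CPM or less, and Siglech and Slc2a5 had 1 count in each group and were not tested. Markers of other cells were low or came from few genes. The 12 neuron markers summed to at most 5.2 CPM in any of the 6 libraries. Astrocyte markers summed to 62.1 to 107 CPM in wild-type and 54.9 to 71.1 CPM in inhibited cells, with Gjb6 at 0 in all of them. Of 7 tested, 6 had a change below zero, 2 were lower and 1 higher in edgeR, with a median of -1.44. Oligodendrocyte lineage markers summed to 221 to 262 and 225 to 235 CPM. There 9 of 11 tested had a change below zero, and 3 were lower and 0 higher in edgeR, with a median of -0.63. DESeq2 called 4 of these lower and 1 higher. Without replicate 3 the edgeR calls of both lists were as many, with medians of -1.16 and -0.52. Lymphocyte markers reached at most 2.91 CPM, with Cd3e, Cd8a, Nkg7 and Trbc2 at 0. Summed markers of monocytes and granulocytes did move with the groups, from 98.5 to 151 CPM in wild-type to 307 to 347 CPM in inhibited cells. That rise was mainly in Csf3r, the receptor for granulocyte colony-stimulating factor (log2 change 1.57, edgeR adjusted p 3.25e-05), while S100a9, Ly6g and Mpo were at 0. Most members did not follow it. Of 6 tested, 5 had a change below zero, 1 was higher and 1 lower in edgeR, with a median of -0.59. Without replicate 3 the calls were again 1 and 1, with 3 below zero and a median of 0.22. Fibroblast and vessel markers summed to 10.2 to 29.4 and 62.9 to 67.6 CPM, mainly in the receptors Kdr and Flt1, with Rgs5, Cldn5 and Vtn at 0. Their 6 tested members were split, with 3 changes above and 3 below zero. In edgeR 2 were higher and 0 lower, with a median of 0.79. Leaving out replicate 3, 2 of 7 were higher and 0 lower, with a median of 0.03. Border macrophage markers summed to 2536 to 2873 and 3194 to 3369 CPM, with Lyve1 at 0, but most members did not follow that sum. Of 8 tested, 6 had a change below zero, 2 were lower (F13a1 and Cbr2) and 0 higher in edgeR (1 at an unadjusted p below 0.05 and 1 by DESeq2), with a median of -0.26, and without replicate 3 the counts were 4 lower and 2 higher of 9. Siglec1, which is also interferon-stimulated, measured 754, 686 and 59.5 CPM in wild-type and 1445, 1502 and 1540 CPM in inhibited cells (1.58, edgeR adjusted p 0.0753, and 1.04, 0.00418, without replicate 3). The part of these cells in the results below was not tested. In such bulk libraries fewer cells of a type and less RNA per cell cannot be told apart.

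Trem2 itself (ENSMUSG00000023992, chromosome 17, 48346401 to 48354147, GRCm38) measured 945, 935 and 1894 CPM in the wild-type libraries and 503, 551 and 505 CPM in the inhibited R47H/+ libraries. All 3 inhibited libraries lay below all wild-type ones, and replicate 3 was the highest of those. The log2 change was -1.28 (SE 0.25, edgeR adjusted p 0.00263), and -0.87 (0.00159) without replicate 3. It did not pass in the fit of the 6 libraries alone (edgeR adjusted p 0.112). R47H/+ cells without inhibitor held 451, 454 and 489 CPM, and the difference between inhibited and uninhibited R47H/+ cells was 0.16 (edgeR adjusted p 0.981). The table has 1 row for Trem2, so its counts do not separate the alleles, and whether reads from the R47H allele count in that row was not tested.

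The neighbours of Trem2 on chromosome 17 held the clearest single difference of the locus. Treml2 (ENSMUSG00000071068, 48299498 to 48312533), which encodes a TREM-like receptor and ends 33867 bases before Trem2 begins, measured 5.98, 5.73 and 5.2 CPM in wild-type and 40.1, 45.6 and 40.8 CPM in inhibited cells. The groups were far apart and each was tight, with a change of 2.90 (SE 0.105, edgeR adjusted p 1.29e-10) with all libraries and 2.83 without replicate 3. Uninhibited R47H/+ cells were at 40.9, 40.7 and 38.5 CPM, so the ranges of both R47H/+ groups overlapped; their difference was 0.07 (SE 0.0951, edgeR adjusted p 0.959). On the other side of Trem2, 5768 bases away, Treml1 (48359916 to 48367176) was lower: 3.07, 3.99 and 2.29 CPM in wild-type and 0.685, 1.03 and 0.933 CPM in inhibited cells (-1.82, edgeR adjusted p 0.00455). Of 18 neighbours tested within the region, 1 was higher and 2 were lower with all libraries (the third call being Bysl, at -0.41), and 2 and 5 without replicate 3. Of all genes 6.84% were higher and 5.71% lower, and 8.55% and 7.22% without replicate 3. With 18 genes, the counts with all libraries lie near those shares.

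Of the gene lists examined, the interferon-stimulated genes had the most members called higher. Type I interferon acts through its receptor on transcription factors that bind a response element in the promoters of target genes. Of 57 such genes tested, 52 were higher and 0 lower (edgeR), against 6.84% and 5.71% of all genes, and the list's median change was 1.64, against -0.016 over all genes. At an unadjusted p below 0.05, 55 were higher and 0 lower, and DESeq2 called 52 higher and 0 lower. Without wild-type replicate 3 all 57 were higher, with a median of 1.63, and 40 were higher in the fit of the 6 libraries alone. The list was chosen with earlier results of these data known, so its count is a description.

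The 2 promoter sequences printed here, of strongly higher genes, were picked because they hold the response element. Of the 58 listed interferon-stimulated genes, 45 had a RefSeq promoter (GRCm38.p6, 250 bases before to 50 after the start of the gene), and 24 of these, 53.3%, held GAAANNGAAA on either strand, compared with 943 of 27025 promoters in all, 3.5%. Of the 12 genes with the largest rise named below, 7 had a promoter entry and 3 held the motif (Ifi208, Ifit1bl1 and Ifi206), and of the 12 with the largest fall 9 had an entry and 0 held it. The promoters of Irf7, Ifit2 and Ifi44, interferon-stimulated genes named below, did not hold the motif in this window. A match is a description of the letters, not a shown binding site. Ifi208 (chr1:173673415-173673714, plus strand) and Ifit1bl1 (chr19:34601919-34602218, minus strand) are printed 5′ to 3′ with the motif in capitals. In Ifit1bl1 the match is on the opposite strand.
Ifi208: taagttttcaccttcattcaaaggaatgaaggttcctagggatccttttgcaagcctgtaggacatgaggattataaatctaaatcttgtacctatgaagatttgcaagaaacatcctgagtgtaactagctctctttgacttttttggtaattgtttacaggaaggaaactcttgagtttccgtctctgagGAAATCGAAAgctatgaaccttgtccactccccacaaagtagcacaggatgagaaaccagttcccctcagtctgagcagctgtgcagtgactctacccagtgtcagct
Ifit1bl1: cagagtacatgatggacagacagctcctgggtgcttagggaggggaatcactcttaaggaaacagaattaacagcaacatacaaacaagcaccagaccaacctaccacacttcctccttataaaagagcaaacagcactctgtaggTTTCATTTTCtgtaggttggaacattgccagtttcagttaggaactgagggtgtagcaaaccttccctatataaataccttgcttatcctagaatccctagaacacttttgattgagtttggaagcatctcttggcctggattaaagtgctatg
The motif begins 58 bases before the start of Ifi208 and 104 before that of Ifit1bl1. The promoter of Ifi206, a neighbouring gene of the same family, shares an unbroken run of 182 identical bases with that of Ifi208. Members of such families have near-identical copies, and how the authors' counting split reads between them is not given, so the levels of single Ifi200, Gbp, Oas, Ms4a4 and H2-Q genes are uncertain.

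Gbp4 (chromosome 5, 105115767 to 105139586), an interferon-induced GTPase, had the largest rise of the genes named. It measured 0.676, 1.42 and 0.675 CPM in wild-type and 12.8, 11 and 15.2 CPM in inhibited cells, a change of 3.77 (SE 0.225, edgeR adjusted p 1.75e-08). Uninhibited R47H/+ cells held more, at 28.6, 26.8 and 27.6 CPM. Irf7, the transcription factor that amplifies the interferon response, measured 105, 125 and 122 CPM in wild-type and 886, 967 and 982 CPM in inhibited cells, a change of 3.01 (SE 0.141, edgeR adjusted p 1.99e-09). It lay at 1410, 1211 and 1194 CPM without the inhibitor, above the inhibited libraries, and this last difference passed only without wild-type replicate 3, a library outside that pair (-0.43, edgeR adjusted p 0.118, and -0.42, 0.0335). Ifit2, an RNA-binding antiviral protein, measured 122, 164 and 139 CPM in wild-type and 889, 813 and 788 CPM in inhibited cells, a change of 2.55 (SE 0.138, edgeR adjusted p 6.96e-09). Its uninhibited level of 1335, 1288 and 1189 CPM was higher still, and here MK-2206 was followed by a lower level (-0.61, edgeR adjusted p 0.018). Zbp1, a sensor of Z-form nucleic acid, changed by 2.24, Ifi44 by 3.39 and Rsad2, the antiviral enzyme viperin, by 2.40.

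The interferon-stimulated genes thus lay between the 2 other groups, closer to the uninhibited one. Uninhibited R47H/+ cells had 54 of 57 higher than wild type with a median of 2.07, and 57 without wild-type replicate 3, against 8.22% of all genes higher and 6.83% lower in that comparison (9.81% and 9.03% without that replicate). Inhibited minus uninhibited R47H/+ cells had 12 of 57 lower and 0 higher (edgeR; 30 lower and 0 higher at an unadjusted p below 0.05, and 19 and 0 by DESeq2), with a median of -0.41, against 1.36% of all genes lower and 1.19% higher. The fit without wild-type replicate 3, a library outside that comparison, had 26 of 57 lower and 0 higher, against 3.16% of all genes lower and 3.16% higher. These comparisons share libraries with the main one, so the medians are set side by side without a test. The wild-type libraries shared by both set part of each value.

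For 5 of the 57 genes the call rested on leaving out wild-type replicate 3, and those named here were chosen after their values were seen because they account for that difference. Bst2, the virion tether, measured 231, 281 and 766 CPM in wild-type and 698, 782 and 823 CPM in inhibited cells, so replicate 3 reached the inhibited level. Ifitm3, which blocks viral entry, measured 228, 240.0 and 565 CPM against 545, 553 and 569.9 CPM. Ifi35 and Slfn2 behaved alike. The log2 changes of the 5 lay between 0.09 and 0.85 with all libraries, none called, and between 0.82 and 1.57 without replicate 3, all called. Conversely Stat2 was lowest in replicate 3 (174, 199 and 75.5 CPM) and its change fell from 1.80 to 1.47 without it.

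**Figure D2:**
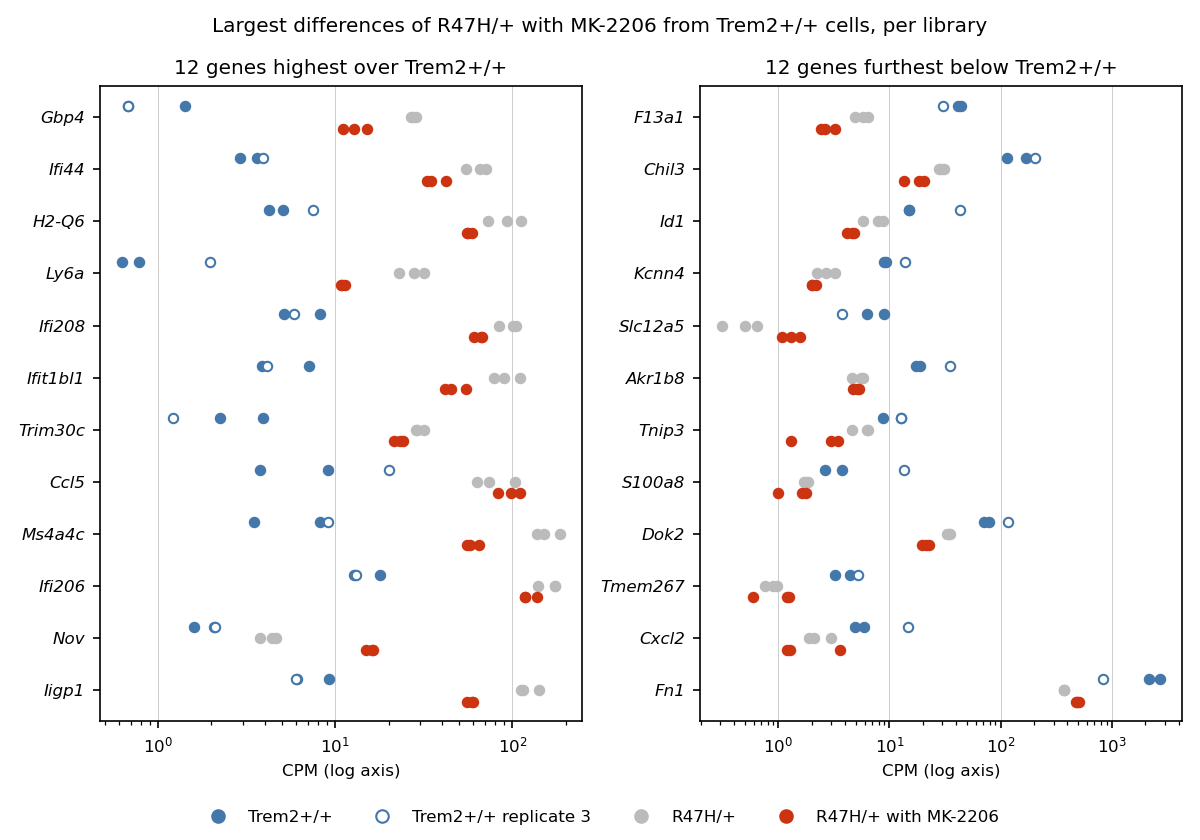
CPM (log axis) of the 12 genes with the largest positive change (left) and the 12 with the largest negative change (right) among those that met the naming rule, 1 point per library, in wild-type (blue, replicate 3 open), uninhibited R47H/+ (grey) and inhibited R47H/+ cells (red). Red and blue points do not overlap in any row because the rule asked for it; grey points lie to the right of the red ones for Gbp4, Ly6a and Iigp1, and to the left of them for Nov.

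Of the 12 genes with the largest rise, 9 were not on the interferon list, but several of these are known interferon or interferon-gamma targets. Iigp1, an immunity-related GTPase, measured 6.08, 9.17 and 6.01 CPM in wild-type and 59.9, 55.2 and 58.8 CPM in inhibited cells, a change of 3.02 (SE 0.169, edgeR adjusted p 8.61e-09). Ly6a, the surface protein Sca-1, measured 0.624, 0.779 and 1.96 CPM and 11.3, 10.8 and 10.9 CPM (3.36, edgeR adjusted p 3.31e-06). Both were lower than in uninhibited R47H/+ cells, with differences of -1.08 and -1.32 (edgeR adjusted p 0.000886 and 0.0121). The remaining genes with the largest rise outside the list were H2-Q6, Ifi208, Ifit1bl1, Trim30c, Ccl5, Ifi206 and Nov, with changes between 3.04 and 3.36.

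The genes of antigen presentation that were called against wild type were all higher. Of 22 genes of major histocompatibility complex (MHC) class I and peptide loading, 12 were higher and 0 lower (edgeR; 15 and 1 at an unadjusted p below 0.05, 14 and 0 by DESeq2), with a median of 0.73. Without wild-type replicate 3, 17 were higher. Tap1, the peptide transporter, measured 95.6, 119 and 93 CPM in wild-type and 299.8, 315 and 343 CPM in inhibited cells, a change of 1.64 (SE 0.117, edgeR adjusted p 9.51e-08). The nonclassical class I gene H2-Q6 measured 4.21, 5.04 and 7.49 CPM against 59.4, 55.1 and 55.9 CPM, a change of 3.36, and H2-Q7 changed by 2.90. B2m, the light chain of every class I molecule, measured 2105, 2201 and 4579 CPM against 5373, 4677 and 4245 CPM, so that replicate 3 overlapped the inhibited range, and it passed only without that replicate (0.69, edgeR adjusted p 0.0652, and 1.13, 8.08e-06). Of 10 class II genes 4 were higher, and 5 without replicate 3, but at low levels. Cd74, the invariant chain, was the most abundant of the higher ones, at 17.3, 20 and 36.9 CPM against 48.9, 54.5 and 58.7 CPM (1.13, edgeR adjusted p 0.00347). In the fit of the 6 libraries alone 5 class I genes and 0 class II genes passed. Between inhibited and uninhibited R47H/+ cells, 0 members of either list passed in edgeR, where 1.19% of all genes were higher and 1.36% lower. At such shares, 0 calls in lists of this size say little. At an unadjusted p below 0.05, 2 class I genes and 1 class II gene were lower, and as many by DESeq2. The medians were -0.21 and -0.32. Without wild-type replicate 3, edgeR called the class I genes H2-Q6, Tap1 and H2-T22 and the class II gene H2-Aa lower in that comparison. Of all genes 3.16% were lower there.

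Cytokines and chemokines went in both directions. Of 24 tested, 3 were higher and 4 lower, with a median of -0.04, against 6.84% and 5.71% of all genes. Without wild-type replicate 3 the counts were 5 and 4, with a median of 0.25, against 8.55% and 7.22%. Ccl5, which attracts T cells, measured 3.74, 9.12 and 20 CPM in wild-type and 97.7, 82.5 and 110.5 CPM in inhibited cells, a change of 3.16 (SE 0.41, edgeR adjusted p 6.26e-05), and 3.88 without replicate 3. Its level in uninhibited R47H/+ cells, 103, 73.9 and 63.3 CPM, overlapped the inhibited one. Csf1, the growth factor of macrophages, measured 11.5, 8.9 and 4.52 CPM against 25, 24.7 and 25.1 CPM, a change of 1.57 (SE 0.213, edgeR adjusted p 8.94e-05). The third higher gene was Osm, at 0.75.

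Tnf was lower: 22.2, 23.4 and 35.8 CPM in wild-type and 8.9, 7.78 and 10.1 CPM in inhibited cells, a change of -1.60 (SE 0.17, edgeR adjusted p 7.36e-06), with 14, 10.9 and 13.3 CPM in uninhibited R47H/+ cells. The neutrophil chemokine Cxcl2 was also lower (-2.06, edgeR adjusted p 0.00317, and -1.43 without replicate 3), and Tgfb1 changed by -0.45. Ccl2, which attracts monocytes, differed in its order between the groups. It measured 2.7, 3.21 and 4.66 CPM in wild-type, 24.5, 14.9 and 12.9 CPM in uninhibited R47H/+ cells and 1.83, 0.972 and 1.24 CPM in inhibited ones. The uninhibited libraries were the highest and the inhibited ones the lowest of the 9, with -1.37 (SE 0.301, edgeR adjusted p 0.00595) against wild type and -3.69 (edgeR adjusted p 6.35e-06) against uninhibited cells. Cxcl10, an interferon-induced chemokine, measured 4.16, 12.6 and 11.6 CPM in wild-type and 13.5, 7.94 and 17.1 CPM in inhibited cells, so the groups overlapped (0.44, edgeR adjusted p 0.375). Il1b overlapped too (33.6, 47.1 and 86.6 against 49.8, 35.1 and 82.8 CPM).

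Feedback and target genes of NF-kB, the factor downstream of Toll-like and TNF receptors, were more often lower than higher. Of 32 tested, 13 were lower and 2 higher, with a median of -0.33, and 18 and 3 without wild-type replicate 3; in the fit of the 6 libraries alone 2 were lower. Nfkbia, the inhibitor that NF-kB itself induces, measured 68.9, 99.9 and 90.2 CPM in wild-type and 49, 40.4 and 59.6 CPM in inhibited cells (-0.80, edgeR adjusted p 0.00187). Tlr2, a receptor for bacterial lipoproteins, measured 200.4, 312 and 253 CPM against 116, 97.6 and 155 CPM (-1.06, edgeR adjusted p 0.000373), and Tnip3 changed by -2.15. Both higher members, Ptgs2 and Nos2, were at 3.42 CPM or less in every library of the pair. In uninhibited R47H/+ cells 12 members were lower and 2 higher than in wild type, against 6.83% and 8.22% of all genes. Without replicate 3 the counts were 14 and 4, against 9.03% and 9.81%.

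Early response factors and phosphatases of the MAP kinase pathway, which track growth factor signalling, showed 13 of 29 lower and 1 higher, with a median of -0.43, and 14 of 31 and 1 without replicate 3. In the fit of the 6 libraries alone 4 were lower. Fos, a subunit of the factor AP-1, measured 58.8, 54.7 and 58.7 CPM in wild-type and 22.1, 20.6 and 23.8 CPM in inhibited cells, a change of -1.37 (SE 0.116, edgeR adjusted p 6.52e-07), and uninhibited R47H/+ cells were at 23.9, 19.9 and 19.8 CPM. Both R47H/+ groups thus held the lower level. Egr1 in uninhibited cells lay just below wild type instead: 66.5, 54.8 and 47.1 CPM in wild-type, 44.1, 43.7 and 46.4 CPM in uninhibited and 25.1, 22.3 and 18.1 CPM in inhibited cells (-1.36, edgeR adjusted p 5.91e-05, against wild type, and -1.04, 0.00374, against uninhibited cells). Myc, which drives growth, changed by -1.42 and Etv5, a target of the ERK pathway, by -1.40.

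Among 25 homeostatic microglia genes, 6 were lower and 3 higher, with a median of -0.06, against 5.71% and 6.84% of all genes. Without replicate 3 the counts were 8 and 5, against 7.22% and 8.55%. Cx3cr1, the fractalkine receptor, measured 55.8, 53.6 and 35 CPM in wild-type, 83.7, 92.6 and 81.5 CPM in uninhibited R47H/+ cells and 24, 17.9 and 17.8 CPM in inhibited ones. The 3 groups did not overlap, with -1.27 (SE 0.171, edgeR adjusted p 8.46e-05) against wild type and -2.11 (9.76e-06) against uninhibited cells. P2ry12, the purinergic receptor that steers microglial processes, lay at 7.64, 9.17 and 8.1 CPM in wild-type, 22.2, 24.4 and 20.7 CPM in uninhibited and 13.2, 10.4 and 10.4 CPM in inhibited cells. It was lower than in uninhibited cells (-0.98, edgeR adjusted p 0.00171), and its remaining difference of 0.45 from wild type did not pass (edgeR adjusted p 0.0707). Its relative P2ry13 stayed higher than wild type, with 17.3, 19.1 and 14 CPM against 30.5, 30.2 and 31.3 CPM (0.86, edgeR adjusted p 8.67e-05), although MK-2206 was followed by a lower level (-0.69, 0.00336). Entpd1, the surface enzyme CD39 that degrades ATP, was higher than in both other groups: 169.9, 156 and 118 CPM in wild-type, 178, 203 and 196 CPM in uninhibited and 329, 332 and 313 CPM in inhibited cells (1.13, edgeR adjusted p 1.96e-05, and 0.76, 0.00451). Gpr183, a receptor for oxysterols, was lower than in both (-1.80 and -1.40, edgeR adjusted p 0.000479 and 0.0153).

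Ch25h, which makes the oxysterol precursor 25-hydroxycholesterol, was low throughout and lowest in inhibited cells, at 2.23, 1.88 and 2.97 CPM in wild-type, 2.98, 1.29 and 2.9 CPM in uninhibited and 0.342, 0.54 and 0.622 CPM in inhibited cells (-2.19, edgeR adjusted p 0.000475). It is 1 of 32 disease-associated microglia genes tested, of which 6 were higher and 5 lower with all libraries and 13 and 6 without replicate 3. The median of this list differed in sign, -0.10 and 0.18. Lpl, the lipoprotein lipase, was among the most abundant lower genes: 4353, 3586 and 4559 CPM in wild-type and 1542, 1497 and 1081 CPM in inhibited cells, a change of -1.60 (SE 0.137, edgeR adjusted p 7.47e-07), with 2286, 2363 and 2178 CPM in uninhibited ones. Spp1, osteopontin, changed by -1.16. Cst7, an inhibitor of cysteine proteases, was higher, at 3.38, 4.13 and 8.64 CPM against 19.7, 22.3 and 19.7 CPM (1.96, edgeR adjusted p 7.32e-05), as were the receptors Axl (0.97) and Clec7a (0.83). Lgals3bp, at 869.8, 913 and 486 CPM against 2389, 2637 and 2747 CPM, is also an interferon target. Apoe was not called in either setting, and its difference changed sign with replicate 3, at -0.21 with and 0.31 without it.

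**Figure D3:**
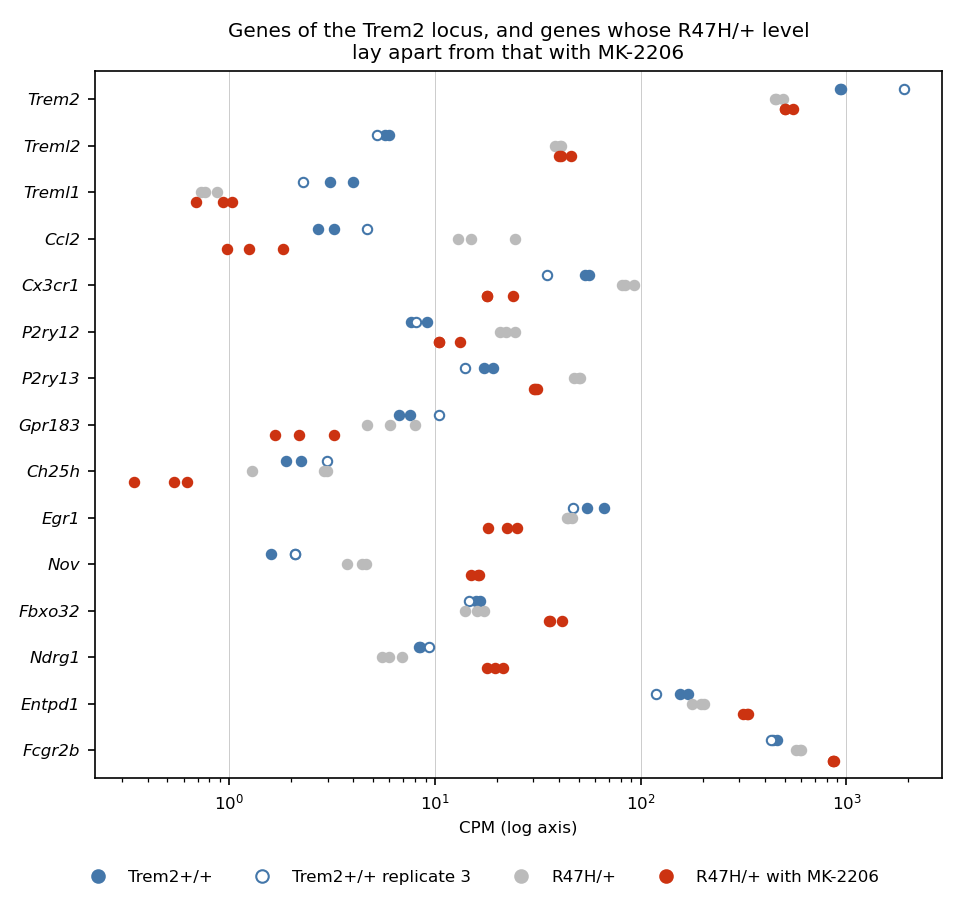
CPM (log axis) of Trem2, Treml2, Treml1 and 12 genes chosen after their values were seen, 1 point per library, in wild-type (blue, replicate 3 open), uninhibited R47H/+ (grey) and inhibited R47H/+ cells (red). Red and grey points lie close together for Trem2 and Treml2; for Ccl2 and Cx3cr1 grey is highest and red lowest; for Nov, Fbxo32, Ndrg1, Entpd1 and Fcgr2b red is highest.

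Genes of cholesterol synthesis and uptake, which SREBP2 controls, were lower as a list. Of 25 tested, 17 were lower and 0 higher (edgeR; 18 and 0 at an unadjusted p below 0.05, 17 and 0 by DESeq2), with a median of -0.75. Without wild-type replicate 3 the counts were 21 and 0 and the median -0.79, and 4 passed in the fit of the 6 libraries alone. Cyp51, lanosterol demethylase, measured 159.5, 161 and 209.7 CPM in wild-type and 57.8, 55.6 and 54.8 CPM in inhibited cells, a change of -1.66 (SE 0.124, edgeR adjusted p 1.78e-07). Uninhibited R47H/+ cells lay between, at 79.9, 77.8 and 74.4 CPM. Sqle, squalene epoxidase, changed by -1.36, Hmgcs1 by -1.10 and Insig1, which retains SREBP in the endoplasmic reticulum, by -0.75. In uninhibited R47H/+ cells 13 of the 25 were lower than in wild type, and 19 without replicate 3, against 6.83% and 9.03% of all genes. Between the R47H/+ groups 0 passed in edgeR, where only 1.36% of all genes were lower, so 0 of 25 says little. At an unadjusted p below 0.05, 2 were lower, and 1 by DESeq2, and the median was -0.22. The fit without wild-type replicate 3 called 3 of them lower there (Cyp51, Hmgcs1 and Msmo1), against 3.16% of all genes. Fatty acid synthesis genes showed 3 of 17 lower and 1 higher, and 7 and 1 without replicate 3. Fasn, fatty acid synthase, measured 156, 164 and 45 CPM against 84.8, 88.5 and 103 CPM and passed only without it (-0.81, edgeR adjusted p 0.000868).

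Of 28 genes of glycolysis and the hypoxia response, 11 were lower and 1 higher, with a median of -0.35, and 14 and 1 without replicate 3. The glucose transporter Slc2a1 measured 73.5, 73.2 and 75.9 CPM in wild-type and 40.5, 43.3 and 48.5 CPM in inhibited cells (-0.75, edgeR adjusted p 5.19e-05), and Pkm, pyruvate kinase, 1136, 1166 and 1391 CPM against 659, 715 and 759 CPM (-0.79, 0.000218). Uninhibited R47H/+ cells were at 40.7, 37.8 and 39.7 CPM for Slc2a1, so both R47H/+ groups were low. The single higher member was Ndrg1, a hypoxia-responsive gene that is also repressed by MYC: 8.47, 8.39 and 9.31 CPM in wild-type, 5.55, 5.96 and 6.87 CPM in uninhibited and 17.9, 19.5 and 21.3 CPM in inhibited cells (1.17, edgeR adjusted p 5.24e-05, and 1.68, 1.8e-05). Of 26 genes of the NRF2 oxidative stress response, 11 were lower and 1 higher, and 11 and 2 without replicate 3, with medians of -0.59 and -0.37. Hmox1, heme oxygenase, measured 325, 336 and 409 CPM against 228, 222 and 240.0 CPM (-0.63, edgeR adjusted p 0.000372), and Gclm, a subunit of the enzyme that starts glutathione synthesis, changed by -0.88. In uninhibited R47H/+ cells 17 of the 26 were lower than in wild type, with a median of -0.86, against 6.83% of all genes. Without replicate 3, 16 were lower, with a median of -0.73, against 9.03%.

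FOXO factors and their targets form a list linked to the inhibited kinase, since Akt restrains FOXO. What caused the changes in this list was not tested. Of 37 tested, 12 were higher and 4 lower than in wild type, with a median of 0.25, and 11 and 8 without replicate 3, with a median of 0.19. Against uninhibited R47H/+ cells 6 were higher and 3 lower, compared with 1.19% and 1.36% of all genes, and 11 and 3 without replicate 3, compared with 3.16% in each direction. In uninhibited cells against wild type 5 were higher and 4 lower, compared with 8.22% and 6.83% of all genes, and 7 and 7 without replicate 3. Fbxo32, the ubiquitin ligase atrogin-1 and a classical FOXO target, measured 16.5, 15.8 and 14.6 CPM in wild-type, 16, 17.2 and 14 CPM in uninhibited and 36.3, 41.2 and 35.8 CPM in inhibited cells. The inhibited libraries stood above all 6 others, by 1.27 (SE 0.13, edgeR adjusted p 4.96e-06) over wild type and 1.26 (4.81e-05) over uninhibited cells. Gadd45a, a stress sensor, measured 7.8, 8.85 and 18.6 CPM in wild-type, 6.53, 7.13 and 7.26 CPM in uninhibited and 22.7, 25.6 and 26.4 CPM in inhibited cells (1.09, edgeR adjusted p 0.00828). Pik3ip1, an inhibitor of phosphoinositide 3-kinase, changed by 1.36, and Cdkn1b, the cell cycle inhibitor p27, by 0.57. The cyclin Ccnd1, which FOXO represses, was lower (-1.22, edgeR adjusted p 0.0444), at 46.3, 37 and 8.71 CPM in wild-type, 61.1, 59.6 and 55.3 CPM in uninhibited and 12.8, 15.8 and 11.1 CPM in inhibited cells. Wild-type replicate 3 lay below the inhibited libraries there, and without it the change was -1.67. Irs2 was not called (0.56, edgeR adjusted p 0.232). Of the 32 members with a RefSeq promoter, 5 held GTAAACA on either strand, 15.6%, against 3.5% of all promoters and 2.5% of those of genes tested. Among the members of smallest p with a promoter entry, Sesn1 held it, and Pik3ip1 and Cited2 did not. The list was chosen as FOXO targets, so this share is a description.

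Transcripts of the pathway itself gave few calls, and how far their number lies from the shares of all genes was not tested. Of 29 genes of the PI3K, Akt and mTOR pathway, 0 were higher and 0 lower in edgeR, against 6.84% and 5.71% of all genes. At an unadjusted p below 0.05 there were 4 and 1, and by DESeq2 0 and 1. Without replicate 3 there were 3 lower and 0 higher, against 7.22% and 8.55% of all genes. Akt1 measured 343, 358 and 292 CPM in wild-type and 316, 368 and 368 CPM in inhibited cells (0.08, edgeR adjusted p 0.672), and Akt2 changed by 0.15, neither called. Akt inhibition acts on the protein, which was not measured here.

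Cell cycle genes had more calls in DNA replication than in mitosis, a difference that was not tested. Of 30 genes of DNA replication and S phase, 7 were lower and 0 higher (edgeR; 15 and 2 at an unadjusted p below 0.05, 9 and 0 by DESeq2), with a median of -0.36, and 9 were lower without replicate 3; none passed in the fit of the 6 libraries alone. Mcm5, of the replicative helicase, measured 11.5, 7.89 and 7.42 CPM in wild-type, 9.72, 8.36 and 9.77 CPM in uninhibited and 4.85, 4.16 and 5.49 CPM in inhibited cells (-0.89, edgeR adjusted p 0.00263). Uninhibited cells overlapped wild type, and inhibited cells were below both. Pcna, the clamp of DNA polymerase, changed by -1.01. Of 28 mitosis genes 1 was higher with all libraries (Cenpe) and 2 others were higher without replicate 3 (Cenpa and Ube2c, where Cenpe did not pass), and Mki67 overlapped between the groups (7.69, 12.2 and 6.21 against 5.88, 6.05 and 7.83 CPM).

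In the ATF4 and amino acid response, 8 of 27 genes were higher and 0 lower (edgeR; 11 and 2 at an unadjusted p below 0.05, 9 and 1 by DESeq2), with a median of 0.20, and 12 without replicate 3, with a median of 0.40. Ddit3, the stress factor CHOP, measured 15, 17.1 and 42.2 CPM in wild-type and 71.1, 74.2 and 69 CPM in inhibited cells (1.54, edgeR adjusted p 0.00264, and 2.14 without replicate 3). Trib3, a pseudokinase that binds Akt, stood between the other groups: 2.29, 3.26 and 4.32 CPM in wild-type, 17.3, 16.5 and 14.1 CPM in uninhibited and 6.56, 7.19 and 5.86 CPM in inhibited cells (1.00, edgeR adjusted p 0.003, over wild type, and -1.29, 0.00106, against uninhibited cells). Asns, asparagine synthetase, measured 14.2, 16.3 and 24.8 CPM in wild-type, 49.2, 43.9 and 40.4 CPM in uninhibited and 20.7, 23 and 19.6 CPM in inhibited cells. Its inhibited and wild-type libraries overlapped, and it was not called with all libraries (0.20, edgeR adjusted p 0.459) but was without replicate 3 (0.45, 0.0279). Against uninhibited cells 8 of the 27 were lower and 0 higher in edgeR, compared with 1.36% and 1.19% of all genes. At an unadjusted p below 0.05 there were 11 and 2, and by DESeq2 9 and 1. Without replicate 3, edgeR called 9 lower and 1 higher, compared with 3.16% of all genes in each direction. None of the 27 passed in the fit of the 6 libraries alone.

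Lysosomal genes were higher in 8 of 44 cases and lower in 1, and 15 and 2 without replicate 3, with medians of 0.18 and 0.21, but 0 and 0 in the fit of the 6 libraries alone. Grn, progranulin, measured 2423, 2401 and 2960 CPM in wild-type and 3558, 3765 and 3682 CPM in inhibited cells (0.50, edgeR adjusted p 0.00397), and Psap, prosaposin, changed by 0.43. Of 27 complement, Fc and scavenger receptor genes, 9 were higher and 6 lower, and 9 and 9 without replicate 3. Fcgr2b, the inhibitory Fc receptor, measured 459.8, 438 and 429 CPM in wild-type, 595, 602 and 568 CPM in uninhibited and 864, 856 and 872 CPM in inhibited cells, a change of 0.97 (SE 0.0772, edgeR adjusted p 3.47e-07). It rose with the inhibitor by 0.55 (edgeR adjusted p 0.000804). Cd300lf, a lipid-binding inhibitory receptor, changed by 1.81 and the complement component C4b by 1.55. Cd36, a scavenger receptor for oxidised lipoproteins, was lower at 1186, 966 and 888 CPM against 485, 436 and 308 CPM (-1.31, edgeR adjusted p 2.23e-05). C1qb lost its call without replicate 3, where it had reached 3089 CPM against 1453 and 1601 CPM in the other wild-type libraries.

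Genes of alternative activation and extracellular matrix included the largest named decreases: 10 of 25 were lower and 5 higher, and 11 and 4 of 27 without replicate 3. F13a1 (chromosome 13, 36867178 to 37050244), the catalytic chain of coagulation factor XIII, measured 44.4, 41.1 and 30.3 CPM in wild-type and 2.4, 2.65 and 3.21 CPM in inhibited cells. This change of -3.81 (SE 0.221, edgeR adjusted p 1.26e-08) was the largest decrease named, and uninhibited R47H/+ cells held 4.94, 5.73 and 6.37 CPM, above the inhibited ones (-1.04, edgeR adjusted p 0.016). Chil3, the chitinase-like protein Ym1, measured 114, 168 and 203 CPM against 18.6, 13.4 and 20.3 CPM (-3.21, edgeR adjusted p 3.55e-08). Fn1, fibronectin, measured 2727, 2181 and 834 CPM against 489, 503 and 481 CPM (-1.96, edgeR adjusted p 0.000258, and -2.33, 3.79e-09, without replicate 3), and 375, 374 and 372 CPM in uninhibited cells. Fn1 was the most abundant of the 12 genes with the largest fall. F13a1 is also a border macrophage marker, and the part of such cells in its change was not tested. Mmp9, a matrix protease, changed by -1.79, and Tgm2, transglutaminase, by -1.67.

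The other genes with the largest fall were Id1, Kcnn4, Slc12a5, Akr1b8, Tnip3, S100a8, Dok2, Tmem267 and Cxcl2, with changes between -2.43 and -2.06. Id1, a target of BMP signalling, measured 15.1, 15 and 43.2 CPM against 4.79, 4.16 and 4.56 CPM, and its change was -1.75 rather than -2.43 without replicate 3. S100a8, an alarmin of myeloid cells, measured 2.65, 3.76 and 13.4 CPM against 1.77, 1.62 and 0.985 CPM, and its change was -1.16 rather than -2.15 without replicate 3. Dok2, an adaptor that dampens kinase signalling, measured 78.4, 71.6 and 116 CPM against 22.5, 19.6 and 21.3 CPM (-2.07, edgeR adjusted p 6e-07). Slc12a5, a potassium and chloride cotransporter, was lowest in uninhibited cells, at 6.24, 8.99 and 3.71 CPM in wild-type, 0.309, 0.643 and 0.503 CPM in uninhibited and 1.08, 1.3 and 1.56 CPM in inhibited cells.

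Nov, a secreted matrix-associated protein also named CCN3, was the exception among the genes with the largest rise. It measured 2.08, 1.6 and 2.09 CPM in wild-type, 4.42, 4.62 and 3.74 CPM in uninhibited and 16.3, 16.1 and 14.9 CPM in inhibited cells. Its change was 3.04 (SE 0.315, edgeR adjusted p 5.75e-06) over wild type and 1.89 (0.0019) over uninhibited cells, whereas the other 11 of these genes were not higher in inhibited than in uninhibited cells by the test.

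**Figure D4:**
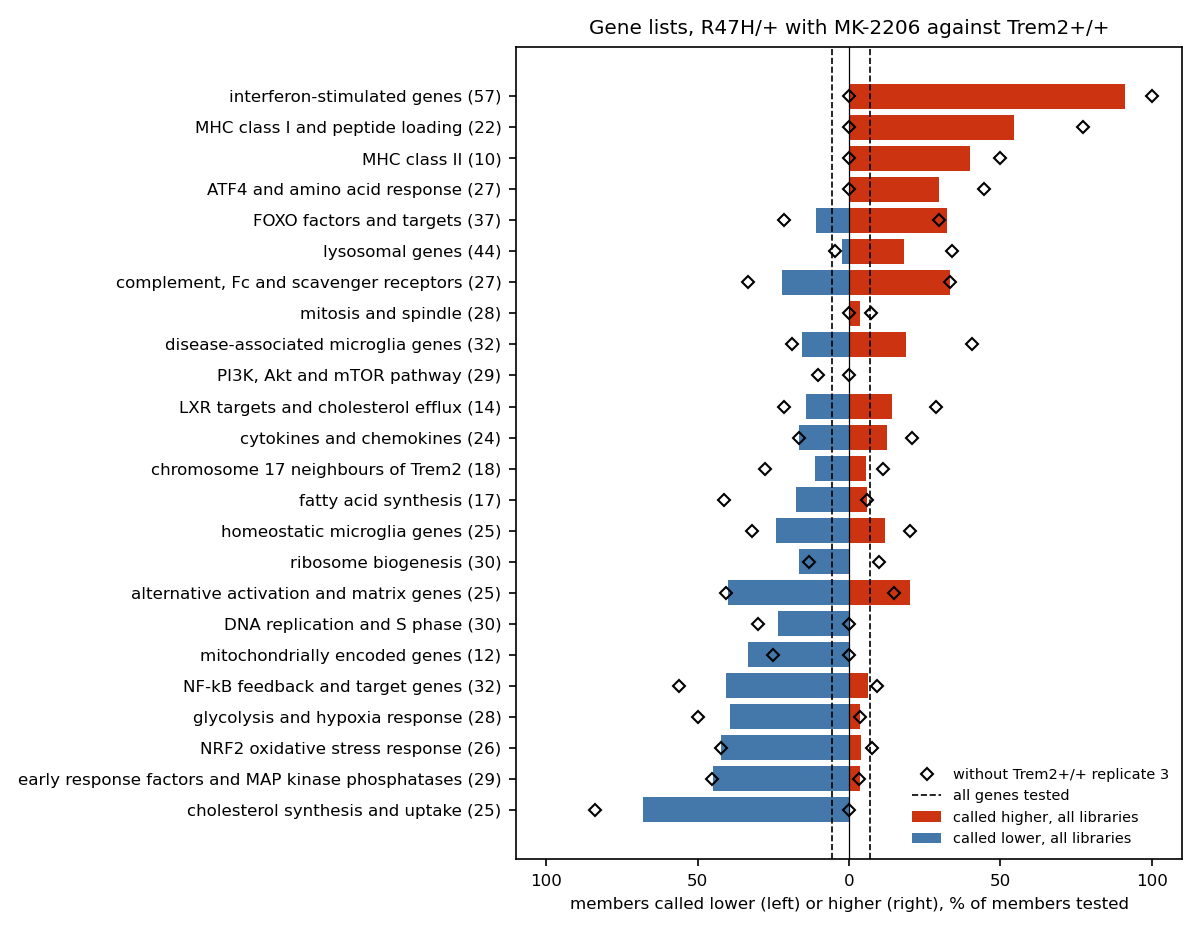
Share of tested members of each gene list called higher (red bars, right) or lower (blue bars, left) in inhibited R47H/+ against wild-type cells, in percent, with the number tested in brackets; diamonds give the shares without wild-type replicate 3 and dashed lines the shares of all genes tested, 6.84% and 5.71%. Interferon-stimulated genes were highest (52 of 57) and cholesterol genes lowest (17 of 25).

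Mitochondrially encoded genes had 4 of 12 lower and 11 of 12 below zero, with a median of -0.69 and mt-Cytb, a subunit of respiratory complex III, at -0.76. Without replicate 3, 3 were lower and the median was -0.46. Ribosome biogenesis genes had 5 of 30 lower and 0 higher, with a median of -0.08 and Bop1 at -0.55. Without replicate 3, 4 were lower and 3 higher (Ncl, Npm1 and Utp14a). LXR targets and cholesterol efflux genes had 2 of 14 higher and 2 lower, and 4 and 3 without replicate 3. The shares of all genes were 6.84% and 5.71%, and 8.55% and 7.22% without replicate 3. Abcg1, a cholesterol exporter, was at 0.83 and the receptor Nr1h3 at -0.88. Of 5 sex-linked genes tested 0 passed in edgeR with or without replicate 3, with 2 at an unadjusted p below 0.05 and 1 by DESeq2 with all libraries. In the fit of the 6 libraries alone, the lists not yet given for it kept few calls: 3 higher and 1 lower among FOXO genes, 4 and 1 among complement, Fc and scavenger receptors, 1 and 2 among both homeostatic and disease-associated microglia genes, and 1 and 3 among glycolysis and hypoxia genes. Lower calls were 3 among alternative activation and matrix genes, 2 among NRF2 genes and 1 each among cytokines, fatty acid synthesis, LXR and ribosome biogenesis genes. In that fit 0 mitochondrially encoded, mitosis or PI3K, Akt and mTOR pathway genes passed, and 1 neighbour of Trem2 was higher and 1 lower.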

How the data were processed

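RNA was sequenced as paired-end NEBNext Ultra libraries, per the labels' protocols, from 6 groups of primary mouse microglia with 3 libraries each. The authors deposited raw, unnormalized counts for each gene. Per the submitters' processing notes, STAR, featureCounts and DESeq2 were used with GRCm38 (mm10), and versions, settings and strandedness are not given in the sources used here. The deposited table also holds each gene's length in bases, start and end, which the authors gave and which were used as other values beside the counts. It has 54532 genes, 27 of whose symbols had become dates and were restored, and 203 rows carry a symbol that occurs more than once. GENCODE M21 holds 54409 of the identifiers, 98.3% of them with identical start and end.

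The analysis used edgeR 4.0.16 in R 4.3.3: filterByExpr, TMM scaling and 1 quasi-likelihood fit over all 18 libraries, each group with its own term (12 residual degrees of freedom), and p-values were adjusted by Benjamini-Hochberg across the 13267 genes tested. SE is the log2 change divided by the square root of F. CPM uses TMM-scaled library sizes, and log2 CPM a prior count of 2. The script was tested on simulated data before use. Permuting 3 against 3 libraries exactly reaches no p below 0.1, so none is given. Alternatives were each of the 6 libraries left out, both libraries with a gene-length trend left out (wild-type replicate 3 and R47H/+ with tau replicate 2), RLE scaling, no count filter, DESeq2 1.42.0, the 6 or the 9 libraries without tau alone, a replicate block and an offset by lowess on gene length (span 0.3). Fits of 5 libraries alone and of the block, both without wild-type replicate 3, were added after seeing the data. The comparison, the 33 gene lists, the alternatives and the named genes were chosen with earlier results of these data known.

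The naming rule took Trem2; in each direction the 12 largest changes among genes called both with all libraries and without wild-type replicate 3, whose mean log2 CPM was 1 or more and whose ranges did not overlap (no clone names, Rik symbols or pseudogenes); from each list the 4 members of smallest p; and Tnf, Il1b, Ccl2, Ccl5, Cxcl10, Apoe, P2ry12, Irs2, Mki67, Gbp4, Akt1 and Akt2. A few genes that this rule or a list covers are not reported here. Further list members are named to illustrate their list and were chosen after their values were seen. Promoters are from RefSeq (GRCm38.p6).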

Additional observations from a re-analysis of the deposited data

How the results depend on the processing

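The count of 1665 changed genes lay between 1068 and 2595 when 1 of the 6 libraries was left out, with 2138 without wild-type replicate 3. It was 3447 without both libraries with a gene-length trend (1599 of the 1665 called again), 3214 in the 5 libraries alone without wild-type replicate 3 (1539), 837 in the 9 libraries without tau and 285 in the 6 libraries alone. RLE scaling gave 1668, no count filter 1470 of 26811 genes, DESeq2 2237 (8 adjusted p missing) and the length offset 2296. The share of calls that were higher was 54.5%, and 41.5% without wild-type replicate 1. Same-numbered libraries did not deviate together (correlations of 0.011, -0.025 and 0 within 1, 2 and 3), and the main fit did not pair them. The wild-type deviations were taken from a mean that holds replicate 3 with its gene-length trend, so these correlations cannot exclude a pairing. A replicate block gave 1420 calls, 1407 of them shared, and 1957 without wild-type replicate 3. Of the 151 genes that the naming rule took, RLE scaling kept all on their side of the threshold, and leaving out wild-type replicate 3 kept 147: C1qb, Cenpe and mt-Nd2 lost their call and Siglec1 gained one, as did B2m, Bst2, Ifitm3, Ifi35, Slfn2, Asns and Fasn among those named outside that rule. Apoe, at -0.21, was 0.33 without both length-trend libraries and 0.31 in the 5 libraries alone, and Xist, at 0.04, was -0.34 and -0.35. Both genes were called in those fits (edgeR adjusted p below 0.05), against their sign with all libraries, where neither was called. The cause was not tested. At 16743452 to 19773922 counts per library, genes near 1 CPM have the fewest counts and the least certain changes.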
